A study of Homo sapiens with 32 samples.

Results

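The genes described are 45 genes of mitosis, in which a cell condenses its copied chromosomes, attaches them to a spindle, separates them and divides. Members were taken by gene symbol from a list of mitotic cyclins, kinases, kinetochore, spindle, chromosome and anaphase proteins, and the symbols were those of the platform annotation. They were 45 of the 16920 gene symbols on the array and were measured by 63 of its 24518 probes. The rule itself used no measured value, although the list was drawn up with earlier results of these data known. Where a gene had several probes, as 14 members did, the probe of highest mean stands for it unless another is named.

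THP-1, a human monocytic leukaemia line, was starved overnight in low serum and then kept for 24 h in 1 of 4 conditions, with 8 Illumina HumanRef-8 arrays each. The conditions were LPS with TGFβ1, LPS alone, TGFβ1 alone, and PBS as the control, with LPS at 100 ng/ml and TGFβ1 at 1 ng/ml. LPS comes from the outer membrane of bacteria and activates TLR4, whereas TGFβ1 acts through its receptor kinases and SMADs; the question was how cells respond to both at once. Whether each array came from its own culture is not given in the labels, and the p-values then cover array to array spread alone, which may be partly or wholly technical.

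Most mitotic genes are periodic: their RNA is low in G1, climbs through S phase and peaks in G2 and mitosis, and is degraded or no longer made after division. A repressor and activator system (the DREAM complex in resting cells, MYBL2 and FOXM1 in cycling cells) acts on many of their promoters. In a growing cell line the level of such RNAs therefore follows the share of cells near division. In bulk RNA, fewer cells of that kind and less RNA per cell cannot be told apart.

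All 63 probes of the members passed the filter on low values, which left out the dimmest 25% of probes and kept 18388. Of the 45 chosen probes, 43 were above background on all 32 arrays. The exceptions were MAD2L1, a checkpoint protein, on 29 arrays, and NCAPH, a condensin subunit, on 8, so the NCAPH values below are close to background. CDC20 was the brightest member, with a mean above 99.1% of all probes.

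The 32 arrays lay on 4 chips, each with 2 arrays of every treatment. Chip 1 held replicates 1 and 2, chip 2 replicates 3 and 4, chip 3 replicates 5 and 6, and chip 4 replicates 7 and 8. Treatments kept fixed places on the chip, and the effect of a place cannot be told apart from that of a treatment. For 4 arrays with LPS+TGFβ1 the place given is also that of a TGFβ1 array. Per array, 12146 to 13486 probes were above background and the upper quartile of intensity lay between 345 and 381. Within every treatment the arrays parted into sets, by the sign of principal component 1 of the residuals (42.4% of their variance), computed without the mitosis and other listed cell cycle genes. Set 1 had 14 arrays, which were replicates 1, 3 and 4 of every treatment and replicate 7 of LPS and of LPS+TGFβ1, and set 2 had the other 18. Chip 2 was thus all set 1 and chip 3 all set 2. Since the set of an array was read from its own values, p-values within sets and for differences between sets are too small. Among monocytic markers, LYZ, SPI1, CD68, ITGAM, CSF1R, CD14 and FCGR1A were above background on all 32 arrays, CD86 on 28 and MPO on 17. The T cell markers CD3D, CD3E, CD8A and CD2, the epithelial EPCAM and KRT8, the collagens COL1A1, COL1A2 and COL3A1 and the erythroid HBB were above background on 0 arrays. The B cell markers MS4A1 and CD79A were above background on 2 and 19 arrays, the epithelial KRT18 and CDH1 on 1 and 18, and the fibroblast PDGFRB on 20. CDH1 averaged an intensity of 196 with LPS+TGFβ1, 31.4 with LPS, 64.0 with TGFβ1 and 20.4 with PBS.

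What the members shared outside the arrays was looked for in their promoters, taken from RefSeq (GRCh38.p14) as the 250 bases before and 50 after each gene's start. Of the 45 members, 39 had an entry there. AURKA, BIRC5, UBE2C, TPX2, TTK and FOXM1 had none. The letters searched, on both strands, were the cell cycle genes homology region (CHR) element, TTTGAA or TTTAAA, which DREAM and MYBL2 complexes are known to bind, and the NF-Y box, CCAAT, which often lies a few helical turns upstream of it. A CHR element stood in 33 of the 39 windows (84.6%), against 8424 of all 35116 promoters of that length (24%). An NF-Y box stood in 29 (74.4%), against 34.6% of all promoters, and both motifs in 25 (64.1%), against 9.27%. In 2 members the motifs shared a base. The E2F letters TTTGGCGC or TTTCCCGC were in 3 of the 39 windows (7.69%), against 2.27% of all. A match is a description of letters and was not tested for binding.

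The last 120 bases before the start are shown for 7 members, 5′ to 3′ on the gene's strand in GRCh38.p14. They are CCNB1, CCNB2, CDC20 and KIF20A, whose RNA was lower with LPS, PTTG1 and ESPL1, which were not called with LPS, and NEK2, which had the largest fall. Capitals mark CHR elements and NF-Y boxes on either strand (TTCAAA and ATTGG are the same motifs read from the other strand).
CCNB1, chr5:69167030-69167149, plus strand: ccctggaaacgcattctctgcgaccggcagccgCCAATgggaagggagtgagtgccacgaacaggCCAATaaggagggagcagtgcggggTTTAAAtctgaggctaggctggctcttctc
CCNB2, chr15:59105026-59105145, plus strand: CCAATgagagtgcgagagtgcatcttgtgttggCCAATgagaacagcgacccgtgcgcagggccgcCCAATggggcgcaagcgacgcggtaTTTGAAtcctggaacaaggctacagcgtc
CDC20, chr1:43358861-43358980, plus strand: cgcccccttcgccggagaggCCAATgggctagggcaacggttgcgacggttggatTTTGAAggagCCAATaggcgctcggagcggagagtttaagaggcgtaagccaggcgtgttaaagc
KIF20A, chr5:138178992-138179111, plus strand: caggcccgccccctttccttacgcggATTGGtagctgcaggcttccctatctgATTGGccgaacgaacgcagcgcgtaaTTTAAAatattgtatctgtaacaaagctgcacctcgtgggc
PTTG1, chr5:160421735-160421854, plus strand: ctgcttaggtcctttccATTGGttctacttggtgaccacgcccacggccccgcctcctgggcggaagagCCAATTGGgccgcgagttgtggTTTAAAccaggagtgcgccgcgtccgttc
ESPL1, chr12:53268179-53268298, plus strand: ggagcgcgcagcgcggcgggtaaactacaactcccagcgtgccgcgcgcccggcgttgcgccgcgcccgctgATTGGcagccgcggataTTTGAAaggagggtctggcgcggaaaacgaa
NEK2, chr1:211675622-211675741, minus strand: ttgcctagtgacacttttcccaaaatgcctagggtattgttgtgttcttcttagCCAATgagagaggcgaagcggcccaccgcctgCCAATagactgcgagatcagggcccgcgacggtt
CCNB1, CCNB2, PTTG1 and ESPL1 carried the first base of a CHR element 30, 29, 29 and 31 bases before the start, with NF-Y boxes upstream of it. PTTG1 and ESPL1 thus held the same pair of motifs as members that fell. The NEK2 stretch held 2 NF-Y boxes and no CHR element.

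LPS alone was set against PBS to ask what 24 h of LPS did to the mitotic genes. Of the 45 members, 38 fell and none rose, with a median log2 change of -0.53, a level lower by 30.6% on the log2(intensity + 50) scale. Over all 18388 probes tested, 21% were called lower and 20.9% higher, with a median log2 change of 0.05 (limma, adjusted p under 0.05). The largest fall was in NEK2, a centrosome kinase, and only NEK2 passed 2-fold. The change was negative on each of the 4 chips for 39 members, and the medians over all 45 on chips 1 to 4 were -0.50, -0.27, -0.71 and -0.72. In 22 members every LPS array lay below every PBS array, against 8.54% of all probes. AURKB, FOXM1, ESPL1, NCAPH, PLK1, PTTG1 and UBE2C did not pass the test. Adjusted p-values in this and the following comparisons are from limma across all 18388 probes. Each log2 change carries its standard error (n = 8 arrays per group). Values given for a single chip rest on 2 arrays per group.

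The engine of mitotic entry is cyclin B or cyclin A bound to the kinase CDK1, switched on by the phosphatase CDC25C. CDK1 had a lowest, median and highest intensity of 1295, 1663 and 1997 with LPS, against 1802, 2266 and 3199 with PBS, a log2 change of -0.49 ± 0.12 (adjusted p = 0.00143). The groups overlapped, with the highest LPS array above the lowest PBS arrays. CCNB1, cyclin B1, had 349.9, 459 and 483 with LPS and 459.6, 723 and 1054 with PBS, a change of -0.59 ± 0.14 (0.00103). The overlap was small, since only PBS arrays of set 1 reached down to the LPS range. CCNB2, cyclin B2, had 2377, 2666 and 2845 with LPS and 3580.1, 4044 and 4524 with PBS, and every LPS array was the lower (-0.61 ± 0.09, 8.35e-07). CCNA2, cyclin A2, had 1964, 2202 and 2469.9 with LPS and 2279.7, 3208 and 4894 with PBS, a change of -0.50 ± 0.16 (0.0109) with overlap. CDC25C changed by -0.53 ± 0.10 (4.66e-05), all LPS arrays being lower. FOXM1, the transcription factor that drives many of these genes, had 310.5, 350.0 and 402 with LPS and 338, 411 and 440.4 with PBS and did not pass (-0.16 ± 0.08, 0.0936). In this group 5 of 6 members fell.

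**Figure D1:**
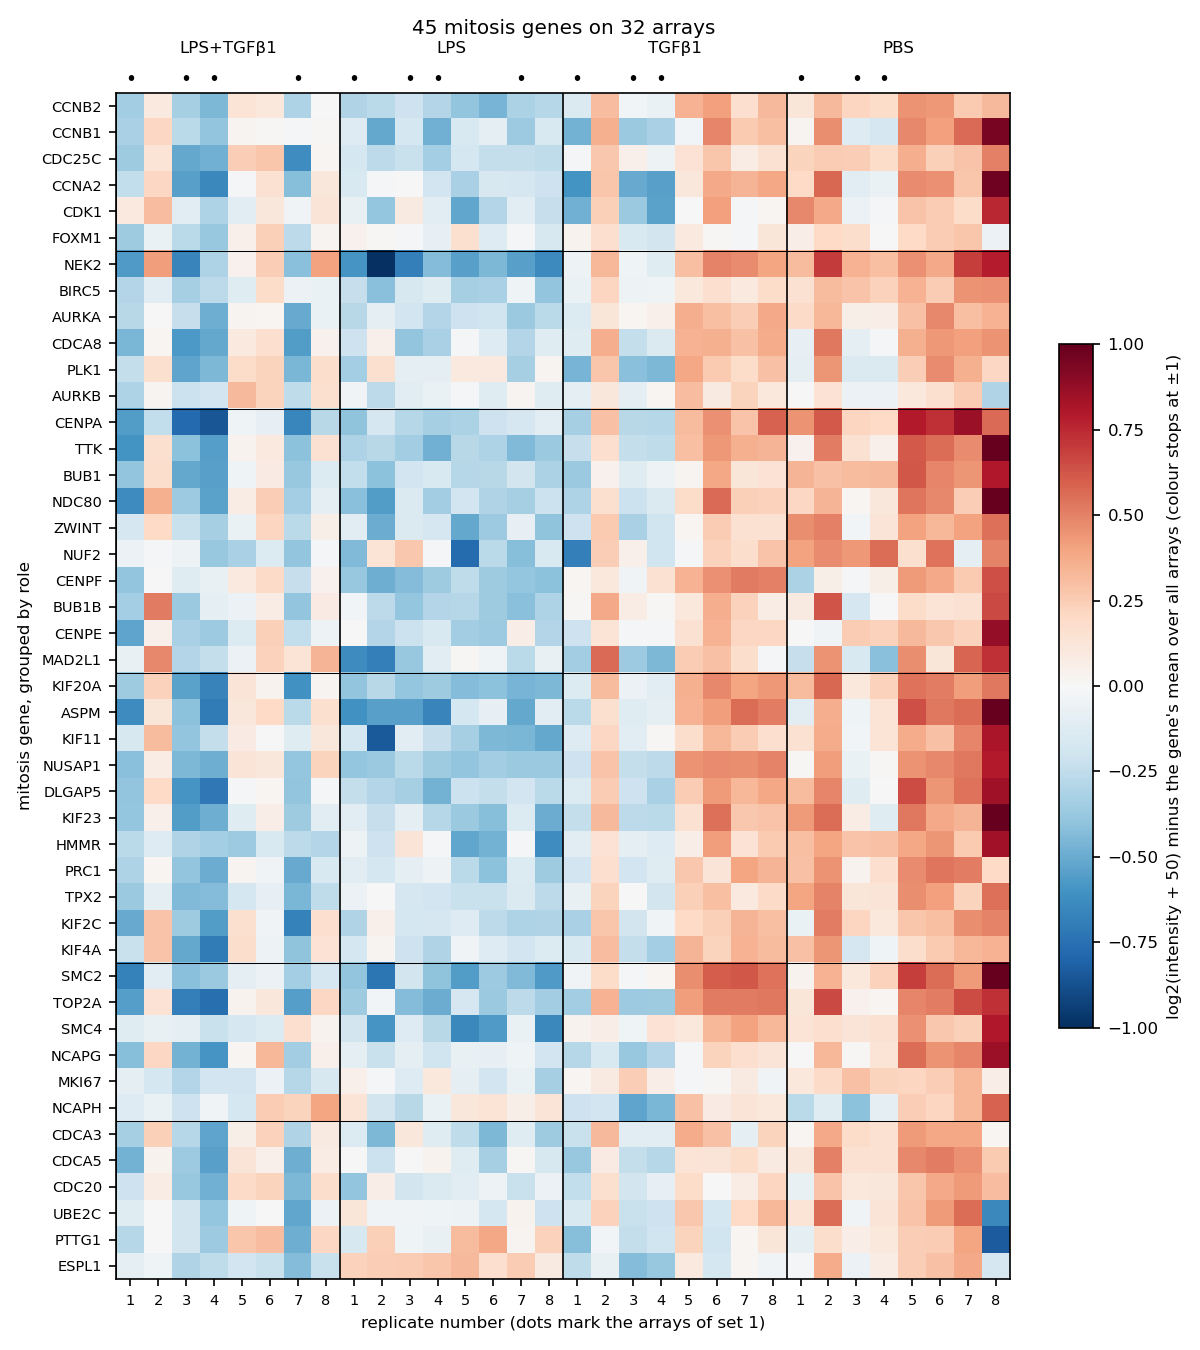
Each row is 1 of the 45 mitosis genes and each column 1 of 32 arrays, with colour for log2(intensity + 50) minus the gene's mean over all arrays, stopped at 1 in either direction; dots mark the arrays of set 1. The LPS columns are low for most genes whichever set they belong to, the PBS columns are high, and in the LPS+TGFβ1 and TGFβ1 columns the arrays of set 1 are lower than those of set 2.

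The mitotic kinases and the chromosomal passenger complex had 4 of 6 members lower. NEK2 had 253, 367 and 407 with LPS and 709, 774 and 1016 with PBS, a log2 change of -1.11 ± 0.14 (adjusted p = 3.18e-08). Every LPS array lay far below every PBS array. AURKA, Aurora kinase A of the spindle poles, had 2429.8, 2663 and 2958 with LPS and 3280.3, 3891 and 4417 with PBS and changed by -0.50 ± 0.08 (9.35e-06), without overlap. AURKB, the kinase of the passenger complex, had 573, 650.4 and 712 with LPS and 555, 726 and 838 with PBS and did not pass (-0.12 ± 0.09, 0.293). The 555 was PBS replicate 8, with the other PBS arrays between 665 and 838. The partners of AURKB in that complex fell, with changes of -0.56 ± 0.07 for BIRC5, survivin (3.73e-08), and -0.43 ± 0.13 for CDCA8, borealin (0.0059). PLK1, Polo-like kinase 1, had 220.1, 283 and 332 with LPS and 258, 349 and 424 with PBS, with broad overlap (-0.23 ± 0.14, 0.212).

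All 10 checkpoint and kinetochore genes fell, with a median log2 change of -0.60. CENPA, the histone H3 variant that marks centromeres, had 761, 856 and 949.6 with LPS and 1185, 1566 and 1902 with PBS, without overlap (-0.80 ± 0.13, adjusted p = 6.69e-06). BUB1, a checkpoint kinase at the kinetochore, had 905, 1007 and 1088 with LPS and 1504, 1612 and 2157 with PBS, again with every LPS array the lower (-0.71 ± 0.10, 3.75e-07). The LPS arrays of BUB1 were tightly grouped, while its PBS arrays spread upwards. TTK, the kinase that starts checkpoint signalling, changed by -0.79 ± 0.14. NDC80 and NUF2, partners in the complex that grips microtubules, changed by -0.70 ± 0.14 and -0.58 ± 0.13, and ZWINT, a kinetochore scaffold, by -0.63 ± 0.10. The other falls were in CENPF (-0.57 ± 0.10), BUB1B, a checkpoint kinase (-0.50 ± 0.11), CENPE, a kinetochore motor (-0.47 ± 0.11) and MAD2L1 (-0.47 ± 0.16, the least precise of these, with 5 of 8 LPS arrays above background).

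The 11 spindle and cytokinesis genes all fell, with a median log2 change of -0.67. KIF20A, a kinesin of the central spindle, had 954, 997 and 1094 with LPS and 1441, 1859.5 and 2013 with PBS, without overlap (-0.80 ± 0.12, adjusted p = 7.48e-07). ASPM, a spindle pole protein, had 1207, 1329 and 1831 with LPS and 1791, 2666 and 4103 with PBS (-0.80 ± 0.16, 8.99e-05). Its groups overlapped, with PBS replicate 8 far above the other arrays. KIF11, the motor that pushes spindle poles apart, changed by -0.71 ± 0.11. The spindle microtubule proteins NUSAP1 and DLGAP5 changed by -0.69 ± 0.13 and -0.68 ± 0.13, KIF23, a kinesin of cytokinesis, by -0.67 ± 0.13 and HMMR, which links microtubules at the spindle, by -0.62 ± 0.10. PRC1, which bundles midzone microtubules, changed by -0.54 ± 0.10, and TPX2, an activator of Aurora A, by -0.51 ± 0.08. KIF2C, a microtubule depolymerase, and KIF4A, a chromosome-bound kinesin, had the smaller changes of -0.48 ± 0.12 and -0.35 ± 0.12.

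Among 6 genes of chromosome structure, 5 fell. SMC2 and SMC4 form the core of condensin, which compacts chromosomes. SMC2 had 330.5, 419 and 502 with LPS and 592, 770.5 and 1289.7 with PBS, without overlap (-0.89 ± 0.13, adjusted p = 4.24e-07), and SMC4 changed by -0.68 ± 0.10. Their partner NCAPG changed by -0.48 ± 0.12, and NCAPH, near background, by -0.06 ± 0.13 without passing. TOP2A, the topoisomerase that untangles sister DNA, had 3628, 4033 and 5055 with LPS and 5231, 7318 and 8586 with PBS (-0.71 ± 0.16, 0.000463). Each LPS array of TOP2A lay below each PBS array. MKI67, which encodes the proliferation antigen Ki-67, was dim, with 117, 148 and 175 with LPS and 169, 194 and 214 with PBS, and changed by -0.29 ± 0.06 (0.000101), with overlap. The scale, log2(intensity + 50), understates the change of dim genes such as MKI67.

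The 6 genes of anaphase and cohesion divided evenly, with 3 lower and 3 not called. CDC20, which activates the anaphase promoting complex, had 9548, 11537 and 13142 with LPS and 11961, 15278 and 16898 with PBS (-0.36 ± 0.10, adjusted p = 0.00363), with overlap. CDCA5, sororin, which holds sister chromatids together, changed by -0.42 ± 0.11, and CDCA3, which helps degrade the mitotic inhibitor WEE1, by -0.47 ± 0.11. UBE2C, the ubiquitin-conjugating enzyme of the anaphase promoting complex, did not pass (-0.23 ± 0.12, 0.149). PTTG1, securin, had 5594, 6860.0 and 8195 with LPS and 3489, 6904 and 8244 with PBS, and ESPL1, the separase it inhibits, had 392, 443 and 469 with LPS and 319, 414 and 489.8 with PBS. Both were slightly above PBS in the fit without passing, by 0.08 ± 0.14 (0.691) and 0.09 ± 0.08 (0.396). The lower end of the PBS range of PTTG1 was replicate 8, at 3489, with the other 7 PBS arrays between 5879 and 8244. Replicate 8 was also the lowest PBS array for UBE2C, at 1803 with the others between 2789 and 4223. The same held for ESPL1, at 319 with the others between 348 and 489.8.

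The size of the LPS fall moved with the array set. The mean log2 level of the 45 members per array was 9.80 ± 0.028 with LPS and 10.32 ± 0.17 with PBS (SD, n = 8 each). The LPS arrays lay between 9.758 and 9.795 in set 2 and between 9.802 and 9.845 in set 1. PBS arrays lay between 10.40 and 10.54 in set 2 and between 10.08 and 10.14 in set 1. Single members could differ more between the sets with LPS, in either direction. HMMR had 1668 to 2236 with LPS in set 2 and 2499 to 2830 in set 1, and ASPM 1314 to 1831 in set 2 and 1207 to 1344 in set 1. Within set 2, 42 members fell, with a median of -0.71, and within set 1, 28 fell and 1 (ESPL1) rose, with a median of -0.29. Lower calls covered 24.7% of all probes in set 2 and 17.3% in set 1, where higher calls covered 28.7%. The fall was larger in set 2 by the test of the difference for 24 members, against 15% of all probes. With the set as a block 39 members fell, with a median of -0.50. In a fit of the 16 arrays on chips 3 and 2, 39 members fell on chip 3 and 22 on chip 2 (21.4% and 16.1% of all probes lower). Each chip had 2 arrays per treatment, and the test of the chip difference was added after the data were seen. The change was more negative on chip 3 than on chip 2 for 44 of 45 members and passed the test of that difference for 16, against 10% of all probes. CDK1 changed by -0.67 ± 0.13 on chip 3 and 0.03 ± 0.13 on chip 2, a difference of -0.70 ± 0.19 (adjusted p = 0.0138). NEK2 changed by -0.91 ± 0.12 and -0.88 ± 0.12 there, a difference of -0.03 ± 0.18 (0.94). The lower quartile of intensity on an array, which reflects background, also differed between sets: with LPS it was 25.7 to 30.8 in set 2 and 16.5 to 22.96 in set 1, and with PBS 19.2 to 34.9 in set 2 and 3.21 to 10.6 in set 1. Its part in these results was not tested.

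**Figure D2:**
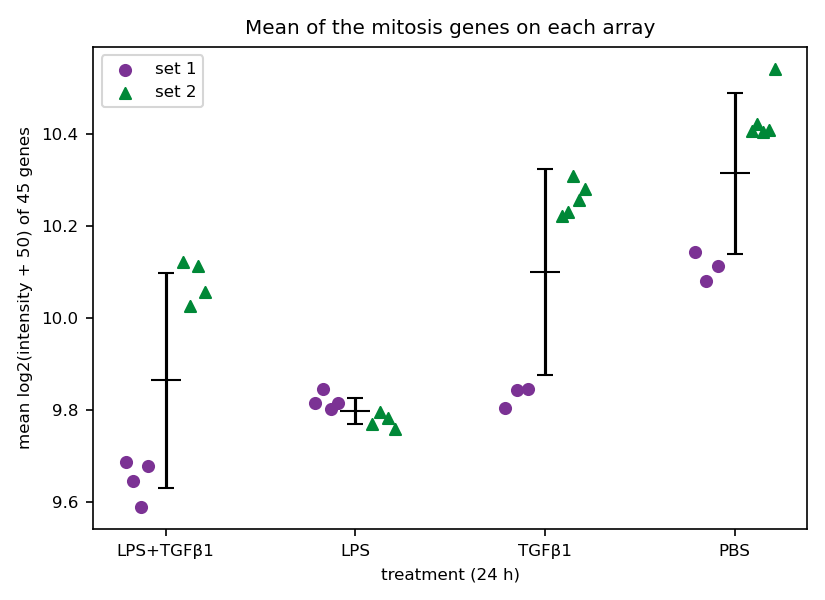
The mean of log2(intensity + 50) over the 45 mitosis genes is plotted for each of the 32 arrays by treatment, with circles for set 1 and triangles for set 2; bars are the treatment mean ± SD (n = 8). The 8 LPS arrays sit together between 9.76 and 9.85, where set 1 lies just above set 2. In each of the other 3 treatments set 1 lies below set 2, with a wider gap.

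TGFβ1 alone was set against PBS to ask what TGFβ1 did without LPS. Of the 45 members, 10 fell and none rose, against 5.7% of all probes lower and 7.54% higher. The median log2 change of members was -0.20, against -0.04 over all probes, and 43 members were negative. The members that fell were spread over the roles: CDK1, BIRC5, BUB1, CENPA, ZWINT, HMMR, TPX2, NCAPG, CDCA5 and ESPL1. For none of the members was every TGFβ1 array below every PBS array, against 1.84% of all probes. An unadjusted p under 0.05 was met by 20 members. Because the same-numbered arrays of TGFβ1 and PBS deviated together, a fit with the replicate number as a block was also made. It called 16 members lower. Every such pair also lay in the same array set, so a pairing by number cannot be told apart from the sets.

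BUB1 had 932, 1247 and 1603 with TGFβ1 and 1504, 1612 and 2157 with PBS (lowest, median and highest intensity), a log2 change of -0.43 ± 0.10 (adjusted p = 0.00211). The groups overlapped through 1 TGFβ1 array. NCAPG had 1176, 1456 and 1806 with TGFβ1 and 1538, 2042 and 2834 with PBS (-0.43 ± 0.12, 0.0162). CENPA had 801, 1261 and 1568 with TGFβ1 and 1185, 1566 and 1902 with PBS (-0.42 ± 0.13, 0.0286), and its TGFβ1 arrays were split, those of set 1 lying below all PBS arrays. CDK1 had 1275, 1868 and 2505 with TGFβ1 and 1802, 2266 and 3199 with PBS (-0.37 ± 0.12, 0.0373), and its change on chip 3, -0.06, was the smallest of the 4 chips. CDCA5 had 1817, 2524 and 2708 with TGFβ1 and 2571, 3068 and 3408 with PBS (-0.36 ± 0.11, 0.0161). ESPL1 had 256, 331 and 394 with TGFβ1 and 319, 414 and 489.8 with PBS, a change of -0.30 ± 0.08 (0.0105), where LPS alone had left it uncalled. Most of these calls depended on the arrays used. Leaving out chip 1, 2, 3 or 4 left 2, 5, 4 and 4 lower members, and leaving out PBS replicate 8, the array with the lowest mean intensity, left 7. BUB1 was called without any one chip, whereas NCAPG lost its call without chip 1, 3 or 4, CENPA without chip 1, 3 or 4, CDCA5 without chip 1, 2 or 3, and CDK1 without chip 1, 2 or 4 or without PBS replicate 8 (adjusted p between 0.0504 and 0.202).

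The other core members were not called with TGFβ1. Among the cyclins, CCNB1 had 361, 572 and 751 with TGFβ1 (-0.30 ± 0.14), CCNB2 had 2969, 3891 and 4398 with TGFβ1 (-0.13 ± 0.09) and CCNA2 had 1618, 2848 and 3252 with TGFβ1 (-0.36 ± 0.16), against the PBS values given above. Of the kinases, AURKA had 2870.3, 3598 and 4124 with TGFβ1 (-0.09 ± 0.08), AURKB 647, 749 and 875 with TGFβ1 (0.05 ± 0.09) and PLK1 197, 348 and 395 with TGFβ1 (-0.16 ± 0.14). The TGFβ1 and PBS ranges of these 6 overlapped. CDC20 had 10597, 12925 and 14588 with TGFβ1 (-0.21 ± 0.10), TOP2A 3994, 6731 and 7436 with TGFβ1 (-0.25 ± 0.16), MKI67 154, 166 and 199 with TGFβ1 (-0.15 ± 0.06) and FOXM1 306, 361 and 403 with TGFβ1 (-0.13 ± 0.08). Their adjusted p-values ran from 0.0954 for MKI67 to 0.794 for AURKB, and the ranges of the last 4 overlapped those of PBS too. The median change of the members was -0.27, -0.25, -0.13 and -0.22 on chips 1 to 4. It was -0.17 within set 2, where 13 members fell (11.6% of all probes lower), and -0.27 within set 1, where 21 fell (7.66%). In the 16 arrays of chips 3 and 2, 5 members fell on chip 3 and 12 on chip 2 (4.39% and 6.15% of all probes). The difference between chips 3 and 2 passed for 0 members, as did that between the sets (0.604% and 2.57% of all probes passed in either direction). With the set as a block 20 members fell.

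**Figure D3:**
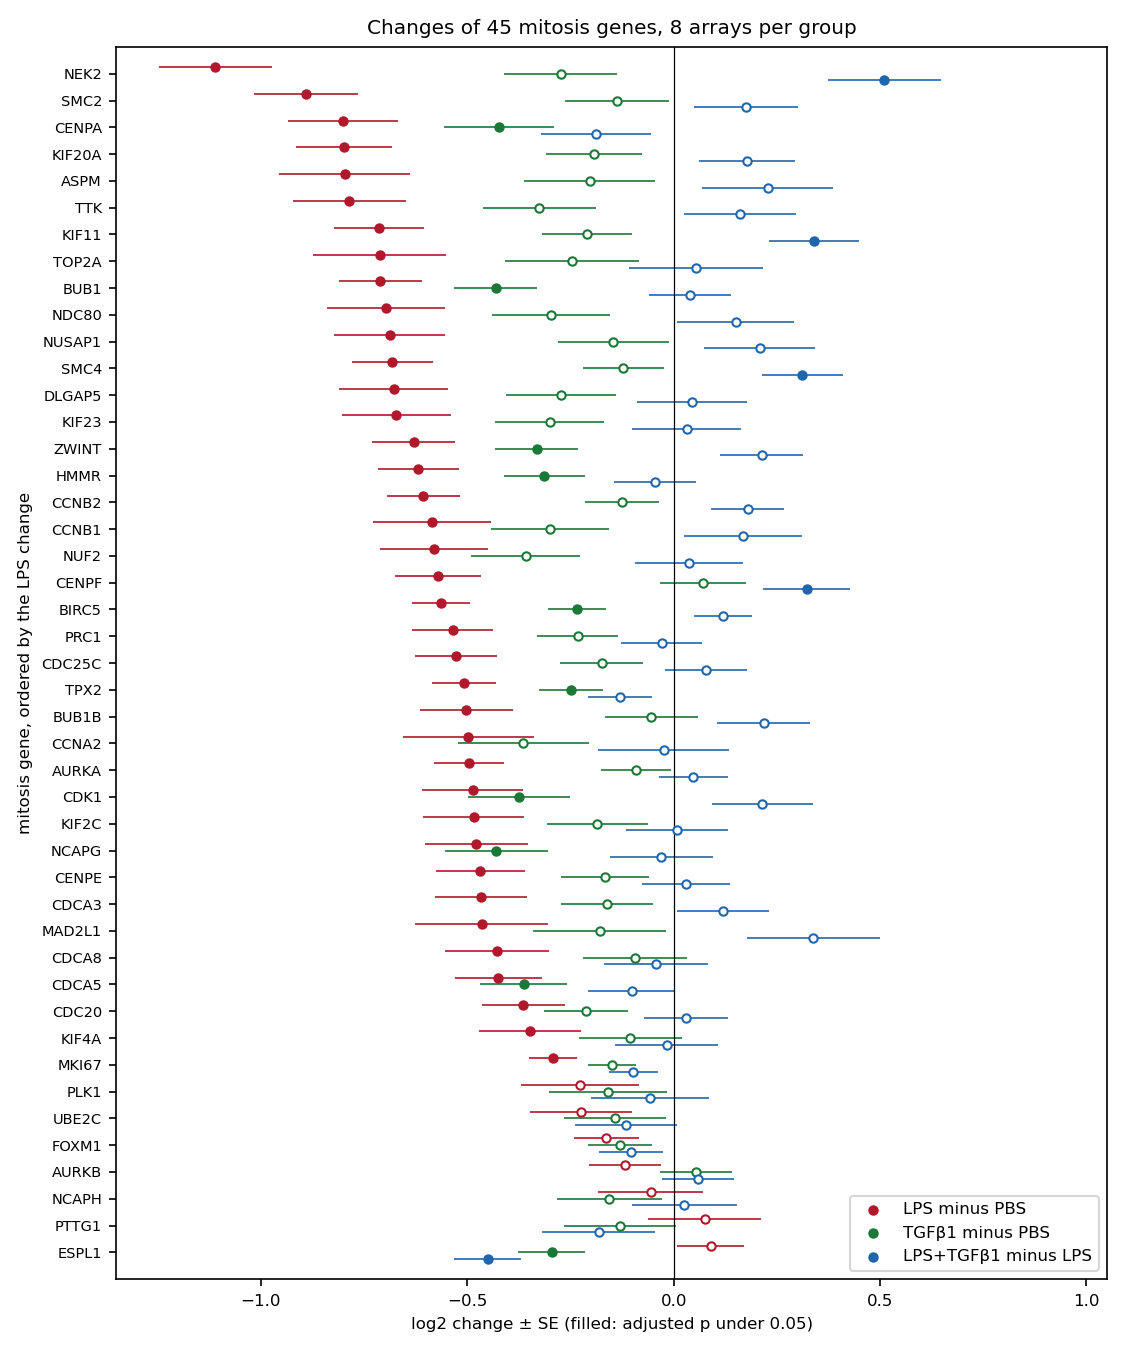
Log2 changes of the 45 mitosis genes with standard errors are plotted for LPS minus PBS, TGFβ1 minus PBS and LPS+TGFβ1 minus LPS (n = 8 arrays each); filled points have an adjusted p under 0.05. The LPS changes lie left of 0 for 43 genes, the TGFβ1 changes cluster near -0.20, and the changes on adding TGFβ1 to LPS lie on both sides of 0, with NEK2 at 0.51 and ESPL1 at -0.45.

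LPS+TGFβ1 was set against LPS to ask what TGFβ1 added to cells that also met LPS. Of the 45 members, 4 (8.89%) rose and 1 (2.22%) fell, against 8.19% of all probes higher and 10.1% lower. The share of rises was thus near that of all probes, and that of falls below it. The median log2 change was 0.04, against -0.07 over all probes. The 4 that rose, NEK2, KIF11, CENPF and SMC4, were among those lowered by LPS, and these comparisons share the LPS arrays. NEK2 had 342, 518 and 777 with LPS+TGFβ1 and 253, 367 and 407 with LPS, a change of 0.51 ± 0.14 (adjusted p = 0.0071). Its LPS+TGFβ1 arrays were split, those of set 2 all above the LPS range and those of set 1 within or near it. CENPF, a kinetochore and nuclear matrix protein, had 669.8, 872 and 1035 with LPS+TGFβ1 and 626, 678 and 744 with LPS (0.32 ± 0.10, 0.0278). SMC4 had 3646, 3952 and 4796 with LPS+TGFβ1 and 2706, 3186 and 4081 with LPS (0.31 ± 0.10, 0.0236). KIF11 changed by 0.34 ± 0.11 (0.0258) and was negative on chip 2. ESPL1 fell: it had 257, 305 and 353 with LPS+TGFβ1 and 392, 443 and 469 with LPS, and every LPS+TGFβ1 array was the lower, as for 2.44% of all probes (-0.45 ± 0.08, 8.83e-05). Its fall was present on each chip, at -0.31, -0.54, -0.45 and -0.50, and held without any one chip. The number of rises depended on the arrays and the fit: it was 1 without chip 1, 0 without chip 3, 2 without chip 4 and 1 after quantile normalization, but 7 with the array set as a block and 11 with array weights. NEK2 lost its call without chip 1 or 3, SMC4 without chip 1 or 3, and CENPF without chip 2, 3 or 4 (adjusted p between 0.0535 and 0.173).

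The pooled median near 0 covered opposite changes on different chips. In the 16 arrays of chips 3 and 2, adding TGFβ1 to LPS raised 22 members and lowered 1 (ESPL1) on chip 3, with a median of 0.31, and raised 1 (CENPF) and lowered 11 on chip 2, with a median of -0.22. All probes had 9.9% higher and 10.1% lower on chip 3, and 7.52% higher and 9.19% lower on chip 2. The change was more positive on chip 3 than on chip 2 for 44 members, and 22 passed the test of that difference, against 4.04% of all probes. CCNB2 changed by 0.55 ± 0.09 on chip 3 and -0.14 ± 0.09 on chip 2, a difference of 0.69 ± 0.12 (adjusted p = 0.00235). CCNA2 changed by 0.31 ± 0.11 and -0.50 ± 0.11, a difference of 0.80 ± 0.16 (0.0036). CDCA3 showed the largest difference, 0.90 ± 0.16 (0.00177), from 0.50 ± 0.11 on chip 3 and -0.40 ± 0.11 on chip 2. CENPA moved by 0.20 ± 0.09 and -0.51 ± 0.09. CENPF was higher on both chips, by 0.45 ± 0.10 and 0.30 ± 0.10, and ESPL1 lower on both, with changes of -0.45 ± 0.10 and -0.54 ± 0.10. The difference for CCNB1 was 0.15 ± 0.19 and did not pass (0.721).

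The array sets gave the same split, but not as an independent result. Each of the chips just compared lay entirely within 1 set, so the set comparison reuses their arrays. Within set 2, 32 members rose and 1 (ESPL1) fell, with a median of 0.31 (13.1% and 17.3% of all probes), and within set 1, 16 fell and 0 rose, with a median of -0.20 (10.8% and 8.66%). All 45 members were more positive in set 2, and 30 passed the test of the difference, against 5.2% of all probes. The chips with arrays of both sets were in between, with medians of 0.10 on chip 1 and 0.05 on chip 4. The mean level of the members per array was 9.86 ± 0.23 with LPS+TGFβ1 and 9.80 ± 0.028 with LPS (SD, n = 8 each). LPS+TGFβ1 arrays lay between 10.03 and 10.12 in set 2, above all LPS arrays, and between 9.59 and 9.69 in set 1, below them. The lower quartile of intensity with LPS+TGFβ1 was 13.2 to 22.7 in set 2 and 9.41 to 18.01 in set 1, and with LPS 25.7 to 30.8 in set 2 and 16.5 to 22.96 in set 1. Its part was not tested.

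**Figure D4:**
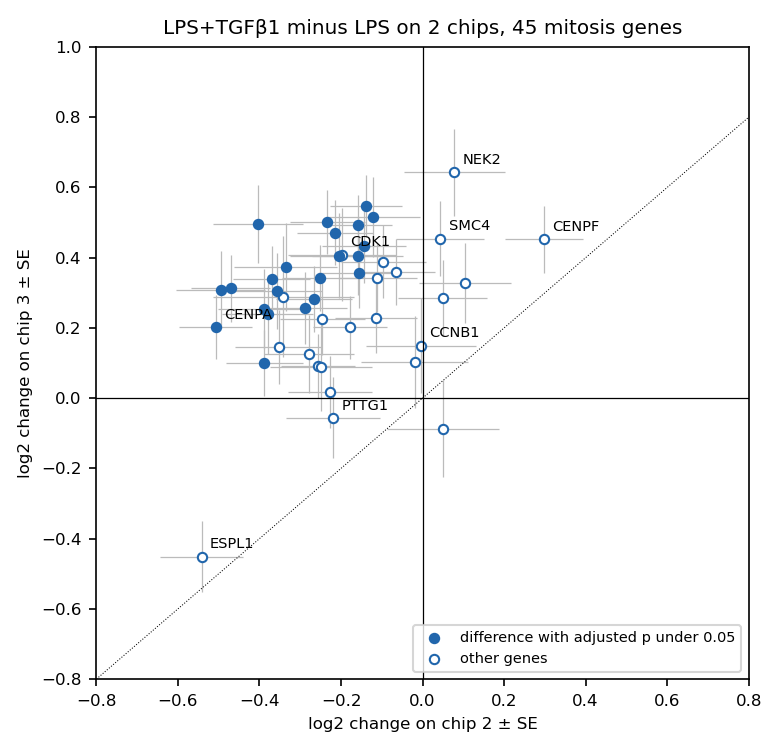
Each point is 1 of the 45 mitosis genes, with its log2 change for LPS+TGFβ1 minus LPS on chip 2 (x axis) and on chip 3 (y axis). Lines are standard errors (n = 2 arrays per treatment on each chip), and the dotted line marks equal change. Filled points passed the test of the chip difference. All but 1 gene lie above the dotted line, and most lie in the upper left, lower on chip 2 and higher on chip 3.

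LPS+TGFβ1 was also set against TGFβ1, which asks what LPS added to TGFβ1. Of the 45 members, 16 (35.6%) fell and none rose, against 16.5% of all probes lower and 14.9% higher. The median log2 change was -0.25, against -0.01 over all probes, and the medians on chips 1 to 4 were -0.14, -0.27, -0.21 and -0.41. It was -0.21 with the array set as a block. Within set 2, 17 members fell, with a median of -0.18 (20.1% of all probes lower). Within set 1, 20 fell and 1 (CDK1) rose, with a median of -0.22 (16.9% lower and 17.8% higher). In 2 members, SMC2 and MKI67, every LPS+TGFβ1 array lay below every TGFβ1 array, against 6.42% of all probes. SMC2 had 344, 477 and 553 with LPS+TGFβ1 and 561, 741 and 916 with TGFβ1 (-0.58 ± 0.13, adjusted p = 0.000436). MKI67 had 121, 135 and 151 with LPS+TGFβ1 and 154, 166 and 199 with TGFβ1 (-0.24 ± 0.06, 0.0015). CENPA had 543, 756 and 993 with LPS+TGFβ1 and 801, 1261 and 1568 with TGFβ1 (-0.57 ± 0.13, 0.00102), and the groups overlapped, since the LPS+TGFβ1 arrays of set 2 lay above the TGFβ1 arrays of set 1. KIF20A had 818, 1196 and 1573 with LPS+TGFβ1 and 1210.0, 1696 and 1875 with TGFβ1 (-0.43 ± 0.12, 0.00417), TPX2 909, 1008 and 1195 with LPS+TGFβ1 and 1106, 1404 and 1575 with TGFβ1 (-0.39 ± 0.08, 0.000147), and TOP2A 3033, 4395 and 5969 with LPS+TGFβ1 and 3994, 6731 and 7436 with TGFβ1 (-0.41 ± 0.16, 0.0496). The other falls were in AURKA, BIRC5, CCNB2, CDC25C, CDCA8, CENPF, DLGAP5, HMMR, KIF23 and PRC1, between -0.21 for BIRC5 and -0.38 for CDCA8. CDK1 (0.10 ± 0.12) and CCNB1 (-0.12 ± 0.14) did not pass. In the 16 arrays of chips 3 and 2, 13 members fell on chip 3 and 19 on chip 2 (15.2% and 15% of all probes), and the difference passed for 1 member (6.27% of all probes). It was CDC25C, which changed by 0.05 on chip 3 and -0.50 on chip 2, a difference of 0.55 ± 0.13 (adjusted p = 0.0108). The count was 25 with the array set as a block and 25 after quantile normalization, but 7 without chip 4, where KIF20A lost its call (adjusted p = 0.0752), and TOP2A lost its call without chip 1, 3 or 4.

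Set against PBS, LPS+TGFβ1 had 38 members lower and none higher (21.9% and 18% of all probes), and all 45 were negative, with a median log2 change of -0.45 against -0.04 over all probes. Medians on chips 1 to 4 were -0.38, -0.52, -0.35 and -0.66. Within set 2, 35 members fell, with a median of -0.36, and within set 1 also 35, with a median of -0.48 (28.2% and 19.1% of all probes lower). In the 16 arrays of chips 3 and 2, 29 fell on chip 3 and 38 on chip 2 (19.9% and 18.4% of all probes). By the test of the difference 3, CDC25C, CDC20 and NEK2, were less negative on chip 3, a share no larger than the 7.48% of all probes. In 8 members, AURKA, BUB1, CENPA, HMMR, MKI67, PRC1, SMC2 and TPX2, no LPS+TGFβ1 array reached the PBS range, against 7.78% of all probes. CENPA had the largest fall (-0.99 ± 0.13, adjusted p = 1.74e-07), followed by SMC2 (-0.71 ± 0.13), BUB1 (-0.67 ± 0.10), HMMR (-0.66 ± 0.10) and TOP2A (-0.66 ± 0.16). BUB1 had 818, 1012 and 1385 with LPS+TGFβ1, against 1504, 1612 and 2157 with PBS. HMMR had 2002, 2116 and 2360.0 with LPS+TGFβ1, against 3102, 3292 and 4668 with PBS. Members that passed here and not with LPS alone were FOXM1 (-0.27 ± 0.08, 0.0056), ESPL1 (-0.36 ± 0.08, 0.000427) and UBE2C (-0.34 ± 0.12, 0.0257). Those not called were CDK1, CENPF, MAD2L1, AURKB, PLK1, PTTG1 and NCAPH, of which CDK1 (-0.27 ± 0.12, 0.0784) and CENPF (-0.25 ± 0.10, 0.0572) came nearest to the threshold. This comparison shares the PBS arrays with the LPS and the TGFβ1 comparisons, and the LPS+TGFβ1 arrays with the 2 before it.

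The remaining core members had these levels with LPS+TGFβ1. CDK1 had 1507, 1917 and 2333, CCNB1 384, 521 and 609, CCNB2 2395, 2967 and 3629 and CCNA2 1566, 2257 and 2859.7. CDC20 had 8995, 12049 and 14653, AURKA 2207, 2848 and 3223, AURKB 554, 657 and 887, PLK1 187, 285 and 347 and FOXM1 261, 311 and 426. For each of these 9 the LPS+TGFβ1 range overlapped the LPS range and, except for AURKA, the PBS range. CCNB1, CCNB2 and CCNA2 changed by -0.42 ± 0.14, -0.43 ± 0.09 and -0.52 ± 0.16 against PBS, and CDC20 and AURKA by -0.33 ± 0.10 and -0.45 ± 0.08, each of them a call.

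**Figure D5:**
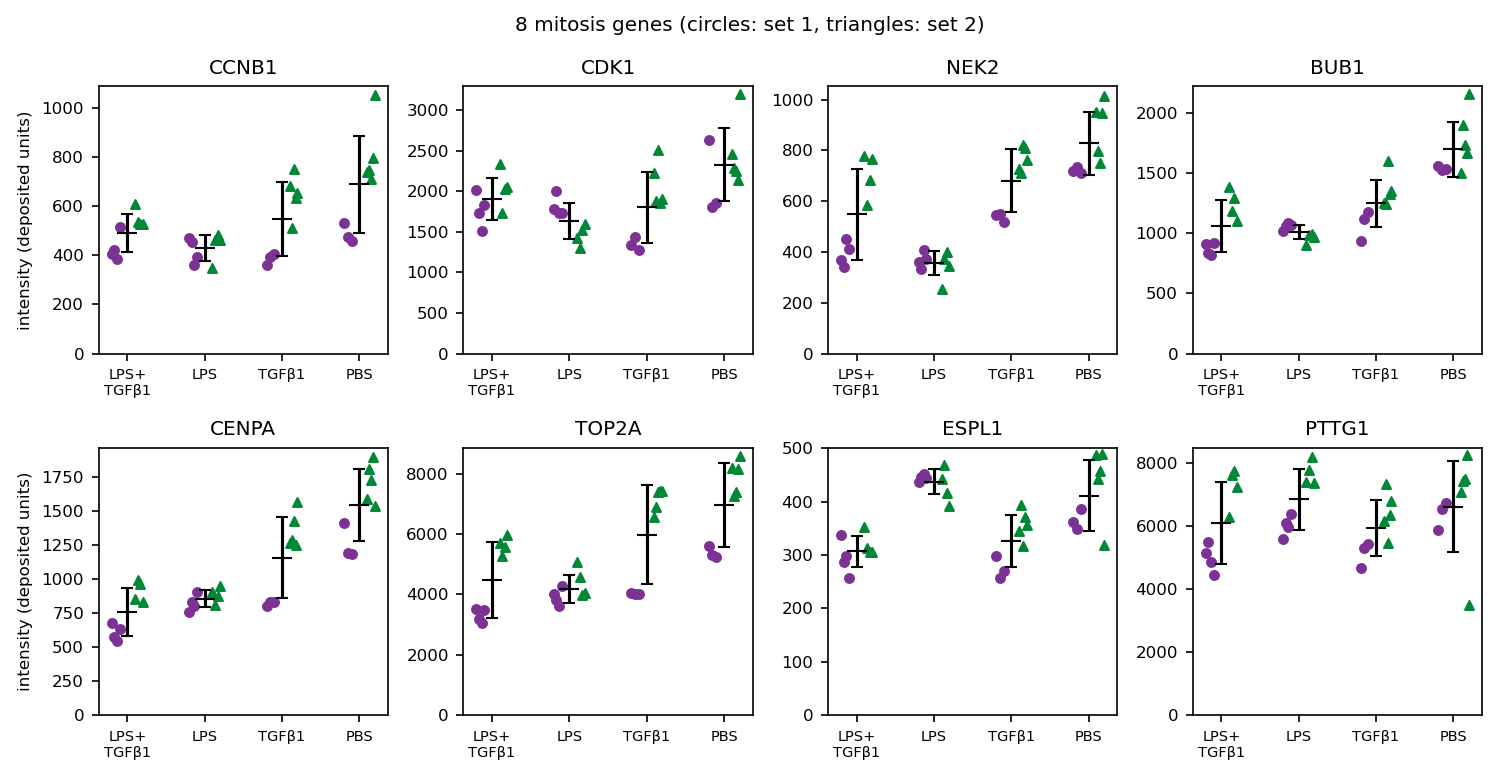
Deposited intensity is plotted by array and treatment for 8 mitosis genes, with circles for set 1 and triangles for set 2; bars are the mean ± SD (n = 8). NEK2 is lowest with LPS and in the set 1 arrays of LPS+TGFβ1, ESPL1 is lower with LPS+TGFβ1 than with LPS on every array, and PTTG1 overlaps in all 4 treatments, with PBS replicate 8 at 3489.

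The interaction asks whether the LPS effect differed with TGFβ1 present: it is the log2 change of LPS+TGFβ1 against TGFβ1 minus that of LPS against PBS. It was positive for 43 members, with a median of 0.28 against -0.04 over all probes. It passed the test for 6 members, all higher, against 2.82% of all probes higher and 4.46% lower. Where the LPS change is negative, a positive value means a smaller fall in the presence of TGFβ1. NEK2 had an LPS change of -0.33 ± 0.14 with TGFβ1 and -1.11 ± 0.14 without it, an interaction of 0.78 ± 0.19 (adjusted p = 0.00883). CDK1 had 0.10 ± 0.12 with TGFβ1 and -0.49 ± 0.12 without (0.59 ± 0.17, 0.031). ZWINT had -0.09 ± 0.10 with TGFβ1 and -0.63 ± 0.10 without it (0.54 ± 0.14, 0.0136), and KIF11 -0.16 ± 0.11 with TGFβ1 and -0.71 ± 0.11 without it (0.55 ± 0.15, 0.0222). BUB1 had -0.24 ± 0.10 with TGFβ1 and -0.71 ± 0.10 without it (0.47 ± 0.14, 0.035), and BIRC5 -0.21 ± 0.07 with TGFβ1 and -0.56 ± 0.07 without it (0.35 ± 0.10, 0.0221). The count was 14 with the replicate number as a block, 17 with the array set as a block and 18 with array weights. The 6 calls became 0 without chip 1, 0 without chip 3 and 0 without chip 4, and 4 without PBS replicate 8, when CDK1 and BUB1 lost theirs (adjusted p = 0.0508 and 0.0566). The median was 0.38, 0.02, 0.48 and 0.29 on chips 1 to 4, 0.54 within set 2 and 0.09 within set 1.

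Where a member had several probes, they mostly moved together. NUF2, SMC4, ZWINT and UBE2C were the exceptions with LPS. The third NUF2 probe, dim and above background on 3 arrays, changed by -0.05 ± 0.09 (0.672), and a dim SMC4 probe by -0.04 ± 0.09 (0.736), while the remaining SMC4 probe changed by -0.61 ± 0.10. The second ZWINT probe, with medians of 63.5 with LPS and 72 with PBS, changed by -0.14 ± 0.07 (0.0946), and the second UBE2C probe by 0.04 ± 0.08, opposite in sign to the first. With TGFβ1 the second probes of CDK1 (-0.35 ± 0.14, 0.0912), ZWINT (-0.19 ± 0.07, 0.0539) and BIRC5 (-0.09 ± 0.08, 0.604) did not pass where the first did, and the dimmest SMC2 probe had the opposite sign (0.08 ± 0.16). For LPS+TGFβ1 against LPS, the other SMC4 probes did not pass (0.17 ± 0.10 and -0.04 ± 0.09), and the second probes of BIRC5 (-0.06 ± 0.08), HMMR (0.22 ± 0.11) and ZWINT (-0.11 ± 0.07) and the third of NUF2 (-0.04 ± 0.09) differed in sign from the first, none of them called. The interaction of BIRC5 and of ZWINT was not called by their second probes (0.02 ± 0.12 and 0.08 ± 0.09), and that of HMMR was called by its second probe alone (0.55 ± 0.15, 0.017). Other probes of FOXM1 (-0.05 ± 0.12), SMC2 (-0.01 ± 0.22) and UBE2C (-0.04 ± 0.11) had an interaction of opposite sign to the first, none of them called. For LPS+TGFβ1 against TGFβ1, other probes of CDC25C (-0.26 ± 0.12 and -0.25 ± 0.11), HMMR (-0.21 ± 0.11), KIF23 (-0.33 ± 0.17) and SMC2 (-0.34 ± 0.18) did not pass where the first did, the second SMC4 probe passed where the first did not (-0.25 ± 0.10, 0.0432), and further probes of SMC4 (0.01 ± 0.09) and UBE2C (0.01 ± 0.08) had the opposite sign. Against PBS the loss of the call held for NUF2 (-0.09 ± 0.09), SMC2 (-0.32 ± 0.16), SMC4 (-0.08 ± 0.09) and UBE2C (-0.07 ± 0.08).

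Within treatments the members varied together. After removal of the treatment means, the median correlation between 2 members over the 32 arrays was 0.62, as a description, since the arrays share their chips and sets. NUSAP1 (0.80), TTK (0.77), KIF20A (0.76) and CCNA2 (0.76) had the highest median correlation with the other members. MKI67 (-0.03), NUF2 (0.24), PTTG1 (0.25), UBE2C (0.28) and SMC4 (0.30) had the lowest.

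Other genes of division were counted from lists in the same comparisons, with the values of LPS first and of TGFβ1 second, each against PBS. The shares of all probes to set beside the counts were 21% lower and 20.9% higher with LPS, and 5.7% lower and 7.54% higher with TGFβ1. Among 20 other spindle and cytokinesis genes that passed the filter, 14 (70%) fell with LPS and 3 (15%) with TGFβ1. STMN1, which destabilises microtubules, averaged 1941 ± 206 with LPS and 4479.7 ± 612 with PBS in intensity (SD, n = 8 each), a log2 change of -1.18 ± 0.13, and CKAP2 changed by -1.12 ± 0.13. ANLN, the scaffold of the cleavage furrow, changed with TGFβ1 by -0.39 ± 0.11 and KIF20B by -0.34 ± 0.08. Of 29 other kinetochore and checkpoint genes, 16 (55.2%) fell with LPS and 8 (27.6%) with TGFβ1, among them CENPU (-1.01 ± 0.14 with LPS, -0.47 ± 0.14 with TGFβ1), CENPM (-0.80 ± 0.13 with LPS) and CENPK (-0.63 ± 0.15 with TGFβ1). Of 15 other condensin and cohesin genes, 9 (60%) fell with LPS and 0 with TGFβ1, led by NCAPD2 (-0.65 ± 0.11) and the cohesin loader NIPBL (-0.63 ± 0.12). Of 17 other genes of the cyclin B and CDK1 switch, 6 (35.3%) fell and 3 (17.6%) rose with LPS, and 2 (11.8%) fell with TGFβ1. CKS2, a CDK subunit, changed with LPS by -0.87 ± 0.11, and WEE1, which inhibits CDK1, by -0.74 ± 0.12 with LPS and -0.35 ± 0.12 with TGFβ1, where the phosphatase CDKN3 changed by -0.42 ± 0.14. Of 17 other anaphase promoting complex genes, 10 (58.8%) fell and 2 (11.8%) rose with LPS. With TGFβ1 the counts were near the shares of all probes, as 1 fell (ANAPC13, -0.19 ± 0.06) and 1 rose (FZR1, 0.25 ± 0.08) of 17. The inhibitor FBXO5 (-0.64 ± 0.15) and ANAPC5 (-0.49 ± 0.07) had the largest LPS changes there.

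Of 18 DREAM and MYBL2 regulator genes, 9 (50%) fell and 3 (16.7%) rose with LPS, and 2 (11.1%) fell and 1 (5.56%) rose with TGFβ1, against the same shares of all probes. The rises with LPS were no more frequent than over all probes. E2F8 and E2F7, repressors that act late in the cycle, changed with LPS by -0.99 ± 0.13 and -0.79 ± 0.16, and with TGFβ1 E2F8 changed by -0.47 ± 0.13 and E2F5 by -0.34 ± 0.09. Of 31 DNA replication genes, 24 (77.4%) fell with LPS and 9 (29%) with TGFβ1, with medians of -0.62 and -0.31. MCM4, a helicase subunit, averaged 3071 ± 767 with LPS and 6523 ± 1122 with PBS in intensity (SD, n = 8 each), a log2 change of -1.09 ± 0.13. GINS2 changed with LPS by -1.06 ± 0.15, and RRM2, which makes deoxynucleotides, and CDT1, which licenses origins, changed with TGFβ1 by -0.77 ± 0.19 and -0.54 ± 0.13. Of 15 genes in a list of G1 arrest genes, 6 (40%) rose and 4 (26.7%) fell with LPS, and 1 (6.67%) rose and 5 (33.3%) fell with TGFβ1. The list also held CCND1, a G1 cyclin and not an arrest gene, which is counted among the rises and was the 1 rise with TGFβ1. CDKN1A, the CDK inhibitor p21, averaged 11234 ± 1615 with LPS and 1755 ± 340.1 with PBS in intensity (SD, n = 8 each), a log2 change of 2.65 ± 0.09. CCND1, cyclin D1, changed by 2.59 ± 0.23 with LPS and 1.53 ± 0.23 with TGFβ1, and CDKN2D, an inhibitor of CDK4 and CDK6, by -0.64 ± 0.09 with TGFβ1.

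With LPS+TGFβ1 against LPS, 8.19% of all probes rose and 10.1% fell, and most of the lists had calls near those shares or below them. The genes named from them here were chosen after their values were seen. Of 20 spindle and cytokinesis genes 1 rose and 0 fell, and of 15 condensin and cohesin genes 0 rose and 0 fell. The riser was CKAP2, a spindle protein, with a mean intensity of 534 ± 107 with LPS+TGFβ1 and 333 ± 85.5 with LPS (SD, n = 8 each), a log2 change of 0.63 ± 0.13 (adjusted p = 0.000415). Of 17 anaphase promoting complex genes 2 rose and 1 fell (ANAPC13, -0.21). FZR1, an activator of that complex in G1, averaged 143 ± 24.1 with LPS+TGFβ1 and 60.7 ± 5.10 with LPS (0.79 ± 0.08, adjusted p = 1.37e-09), and ANAPC16 changed by 0.36. Of 29 kinetochore and checkpoint genes 2 fell (CENPT, -0.28, and HJURP, -0.23), and of 17 genes of the cyclin B and CDK1 switch 2 fell (CCNB3, -0.33, and CDC25B, -0.28). Of 18 DREAM and MYBL2 regulators RBBP4 rose (0.41) and LIN37 fell (-0.26), and of 31 replication genes PCNA (0.55), ORC1 (0.37) and PRIM1 (0.35) rose. Of the 15 genes in the G1 arrest list, CCND1 included, 3 (20%) rose and 8 (53.3%) fell. CDKN1A averaged 5222 ± 329 with LPS+TGFβ1 and 11234 ± 1615 with LPS (-1.09 ± 0.09, adjusted p = 6.37e-11), whereas CCND1 averaged 1642 ± 761 with LPS+TGFβ1 and 665 ± 242 with LPS (1.18 ± 0.23, adjusted p = 0.000247).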

How the data were processed

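Total RNA from THP-1 cells was measured on 32 Illumina HumanRef-8 arrays, 8 for each of 4 treatments, grouped by the labels. The deposited value table holds an intensity per probe on a linear scale, as the authors processed it; per the submitters' processing notes BeadStudio 3.2 was among the tools, while the background correction and the normalization used are not stated. Values reach down to -35.4, and upper quartiles are nearly equal between arrays. A non-normalized table was not used: its 64 columns of values could not be tied to samples.

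From the deposited intensity, log2(intensity + 50) was computed and the 25% of probes with the lowest mean were left out. limma 3.58.1 in R 4.3.3 fitted the treatment means over all 32 arrays. P-values are two-sided and Benjamini-Hochberg adjusted over 18388 probes, and a call is an adjusted p under 0.05. A value was above background when it exceeded the mode of an array's dim values by 3 SD of the values left of it. Probes were named from the platform annotation (21826 with 1 symbol, 0 with several, 2692 with none). Full ranges are given for 12 core members and, in each comparison, the 5 largest called rises and falls with 1 sign on all 4 chips, and from each other gene list the 2 largest called changes with LPS and with TGFβ1; probes that disagree are given. The members and lists were chosen with earlier results of these data known. Same-numbered arrays deviated together for TGFβ1 and PBS (correlation of residuals 0.14 to 0.72) and for LPS+TGFβ1 and LPS (0.52 to 0.68). In these comparisons every same-numbered pair also lay in the same array set. A pairing by replicate number therefore cannot be told apart from the sets. In the other comparisons 1 of 8 pairs did not exceed 0.1. No 2 arrays held identical values. The number of arrays limits the precision. Alternatives were other offsets, filters, normalizations, blocks, array weights, probe summaries and arrays left out; leaving out PBS replicate 8 and the tests of chip and set differences were added after seeing the data. The fit was also run on simulated data, with noise drawn independently for each probe and array and without chips or sets. That run cannot speak for error rates in these data, where members varied together within treatments.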

Additional observations from a re-analysis of the deposited data

Results flagged for a closer look

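In 8 of the 184 sets of 8 arrays examined, the highest or lowest array stood apart from the other 7 by more than Dixon's 95% limit. The sets were the 45 members and the member mean, in each treatment. Chance passes this limit in about 5% of such sets, and the count was not above that share. With LPS, BUB1B, a checkpoint kinase, reached 249.5 in replicate 1, with the other LPS arrays between 178 and 205. NUSAP1, which bundles spindle microtubules, reached 4241 in LPS replicate 3, with the others between 3881 and 4020. NEK2 was at 252.7 in LPS replicate 2, with the others between 334 and 407. MKI67 reached 198.8 in TGFβ1 replicate 3, with the others between 154 and 173.

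PBS replicate 8 stood apart for 4 members. The kinesin CENPE was at 614.5 there, with the other PBS arrays between 304 and 404, and NDC80 was at 997.7, with the others between 435 and 641. HMMR was at 4668, with the others between 3102 and 3522. PTTG1 was low instead, at 3489, with the others between 5879 and 8244. This array also had the lowest mean intensity, 606, of arrays that reached 805. Without it LPS lowered 40 members and TGFβ1 lowered 7, against 38 and 10 with it.

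By the interaction test, the LPS effect differed with TGFβ1 present for NEK2 (0.78), CDK1 (0.59), KIF11 (0.55), ZWINT (0.54), BUB1 (0.47) and BIRC5 (0.35). These values are in log2 units. The LPS change was less negative with TGFβ1 present for each. For CDK1 the change there was not called over all arrays. Its sign varied, with 0.37 ± 0.13 for arrays of set 1 and -0.02 ± 0.11 for those of set 2. The second probe of CDK1 passed the interaction test and those of ZWINT and BIRC5 did not. No interaction was called without chip 1, 3 or 4.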

How the results depend on the processing

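Some values of named genes changed sign within a single chip. CDK1 for LPS against PBS was -0.49 over all arrays and 0.03 on chip 2. KIF11 for LPS+TGFβ1 against LPS was 0.34 over all arrays and -0.14 on chip 2. The members' median for LPS+TGFβ1 against LPS, 0.04, also changed sign: it was -0.04 without chip 3, -0.22 within chip 2 and -0.20 in set 1 alone. Of the counts and medians recomputed, 215 stayed within 1.5 times or 1 SD and 59 moved further, and of the values for named genes 539 kept their call and 123 lost it. Fits without a chip also had fewer arrays. The counts below are of members lower, or higher for LPS+TGFβ1 against LPS and for the interaction. For LPS against PBS, 1, 22 and 18 members were called within chips 1, 2 and 4, with medians of -0.27 and -0.72 on chips 2 and 4 and -0.29 within set 1. For TGFβ1 against PBS, the count was 16 with the replicate block, 6 with only the groups compared, 2 to 5 without 1 chip (2, 5, 4 and 4), 0, 1 and 0 within chips 1, 3 and 4, 20 with the array set blocked and 23 in a fit to set 1 alone. For LPS+TGFβ1 against LPS, it was 1 after quantile normalization, 11 with array weights, 1, 0 and 2 without chip 1, 3 or 4, 0, 0, 14 and 0 within chips 1 to 4 (12 lower on chip 2, median 0.31 on chip 3), 7 with the array set blocked, 0 in set 1 alone (20 lower) and 31 in set 2 alone (median 0.31). For LPS+TGFβ1 against TGFβ1, it was 25 after quantile normalization, 26 with the replicate block, 7 without chip 4, 0 and 1 within chips 1 and 4, and 25 with the array set blocked. For LPS+TGFβ1 against PBS, it was 1, 24 and 8 within chips 1, 3 and 4, with a median of -0.66 on chip 4. For the interaction, it was 14 with the replicate block, 18 with array weights, 0, 0 and 0 without chip 1, 3 or 4, 0, 0, 15 and 0 within chips 1 to 4 (medians 0.016 on chip 2 and 0.48 on chip 3), 17 with the array set blocked, 2 in set 1 alone (median 0.090) and 31 in set 2 alone (median 0.54). The replicate block changed no other count by over 1.5 times. Quantile normalization moved the calls over all probes for LPS against PBS to 3342 higher and 5134 lower, against 3848 and 3857, and the members' LPS median to -0.62. The cause of these changes was not tested. A fit to 8 arrays of 1 chip has little precision, and low intensities limit NCAPH and MAD2L1.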
